A study of Mus musculus with 4 samples.

Results

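The small leucine-rich proteoglycans and the cartilage matrix proteins are secreted molecules of connective tissue, and 10 of their genes were followed in RNA from mouse neural tubes: Ogn, Dcn, Lum, Bgn, Fmod and Aspn of the first kind, and Matn1, Matn4, Acan and Hapln1 of the second. They are 10 of the 24971 genes in the count tables. The genes were selected on their counts: the list was drawn up around Ogn and Matn1, chosen by being lower in the libraries labelled Lbx1Δ/Δ within each replicate number. Their differences between the labels are therefore given as a description, with no test. The 2 libraries labelled Lbx1Δ/Δ (Lbx1 homozygous mutant) and the 2 WT libraries came from neural tubes of E12.5 embryos on a C57BL/6 background. For every library, the tubes of littermates with the same genotype were combined. The labels do not state the number of embryos, what was removed from Lbx1 or whether libraries of the same number share a litter.

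A small leucine-rich proteoglycan has a core protein of leucine-rich repeats that binds collagen fibrils and growth factors, and most members carry glycosaminoglycan chains. In cartilage, aggrecan (Acan) holds water through its chains, link protein (Hapln1) fixes aggrecan to hyaluronan, and matrilins (Matn1, Matn4) connect collagen fibrils with the other components. At this stage such genes are known from the sclerotome that forms the vertebrae around the neural tube, from the connective tissue next to it and from the early meninges, while neural cells make other hyaluronan-binding proteoglycans such as neurocan (Ncan).

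Total counts were 17250143 and 16853984 in libraries 1 and 2 labelled Lbx1Δ/Δ, and 20579803 and 16948717 in WT libraries 1 and 2. Levels are CPM, counts scaled to a common library size, after TMM scaling, a correction for library composition, and 3 counts, the bound set by a count of 0, equal 0.147 to 0.177 CPM. CPM are not divided by transcript length, so levels of different genes are not ranked. Lbx1 itself had 1946 and 6520 counts in the libraries labelled Lbx1Δ/Δ and 819 and 1379 in WT, so its counts do not check the mutant label, and all directions are between libraries as labelled. Markers of neurons and neural progenitors were present, with summed levels of 3174 to 6779 and 2402 to 3081 CPM over the 4 libraries. In pools of tissue, fewer cells of a type and less RNA per cell cannot be told apart. The labels do not say that pools came from separate cultures or matings, so each p-value reflects only how far these 4 samples spread, which may be technical.

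The upstream sequences of Ogn and Matn1 are shown because the list was built around these genes. RefSeq windows (build GRCm38.p6, which is not the mm9 build of the counts) were found for 8 of the 10 genes. Printed here are the 250 bases before the start of each gene, on the plus strand, chr13:49607765-49608014 for Ogn and chr4:130944135-130944384 for Matn1, with matches on either strand to any of 3 motifs in capitals: the motif TATAAA, the motif ACAATG and the motif ACAAAG.
Ogn: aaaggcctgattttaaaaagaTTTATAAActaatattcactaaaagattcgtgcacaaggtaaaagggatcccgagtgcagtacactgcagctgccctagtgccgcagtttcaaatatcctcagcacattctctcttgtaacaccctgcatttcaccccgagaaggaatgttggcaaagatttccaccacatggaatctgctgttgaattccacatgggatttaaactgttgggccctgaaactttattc
Matn1: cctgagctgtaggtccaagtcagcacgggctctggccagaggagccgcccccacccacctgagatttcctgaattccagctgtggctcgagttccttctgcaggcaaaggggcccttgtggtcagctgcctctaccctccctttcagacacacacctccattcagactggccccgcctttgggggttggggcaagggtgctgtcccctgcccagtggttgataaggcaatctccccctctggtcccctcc
TATAAA is the TATA box core, and ACAATG and ACAAAG are cores bound by SOX factors, among them SOX9 of cartilage. The Ogn window held TATAAA on both strands, in overlapping matches whose first bases are at −229 and −227 relative to the start, and the Matn1 window held none of the 3 motifs. Of 32851 windows of this length, 12.4% held TATAAA, 10.7% ACAATG and 16.5% ACAAAG. G and C made up 42.0% of the Ogn window and 62.0% of the Matn1 window, against a median of 52.4% over all windows. Apart from Ogn, the only one of these 8 genes with a match in its window was Aspn, which held TATAAA with first bases at −207 and −178. Whether any of these matches works as a TATA box was not tested.

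Ogn, which encodes osteoglycin (mimecan), a keratan sulfate proteoglycan of bone and connective tissue, was at 23.0 and 14.9 CPM in libraries 1 and 2 labelled Lbx1Δ/Δ, against 54.1 and 29.6 CPM in WT libraries 1 and 2. Both libraries labelled Lbx1Δ/Δ lay below both WT libraries, and within each label library 2 was the lower one. The means were 19.0 ± 5.71 CPM and 41.8 ± 17.3 CPM (SD, n = 2 each). Within number 1 the library labelled Lbx1Δ/Δ held 42.5% of the WT level (95% interval of the ratio 0.378 to 0.477), and within number 2 it held 50.4% (0.432 to 0.588). These intervals are exact binomial ones and cover counting error only. The fitted log2 difference was −1.14, with −0.63 when WT library 1 was left out and −1.51 when WT library 2 was left out.

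Matn1, the cartilage matrix protein matrilin-1, was rare, with 19 and 24 counts in the libraries labelled Lbx1Δ/Δ against 65 and 68 counts in WT. That is 1.11 and 1.40 CPM against 3.18 and 4.02 CPM, and the groups did not overlap. The ratio was 0.348 within number 1 (95% counting interval 0.197 to 0.588) and 0.349 within number 2 (0.210 to 0.563). The fitted log2 difference was −1.51, and between −1.70 and −1.34 when single libraries were left out.

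**Figure D1:**
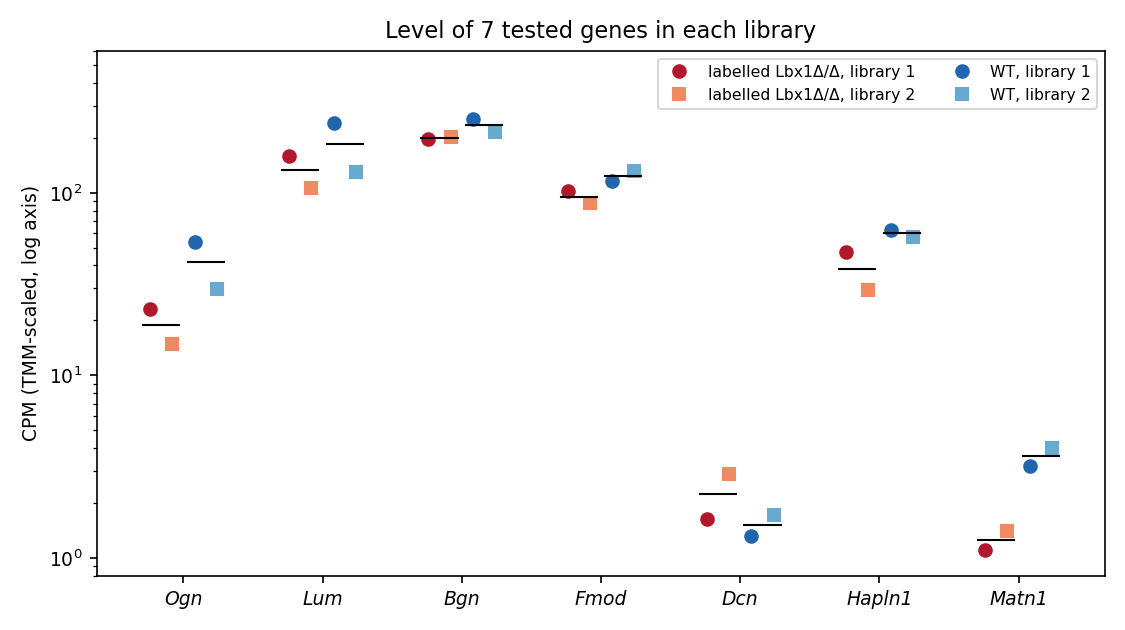
Level of the 7 tested genes in each library, in TMM-scaled CPM on a log axis; red and orange points are libraries labelled Lbx1Δ/Δ, blue points are WT, and black lines are group means (n = 2). Ogn at 23.0 and 14.9 CPM and Matn1 at 1.11 and 1.40 CPM lie below both WT libraries, while the groups of Lum and Dcn overlap.

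Hapln1 encodes the link protein that joins proteoglycans to hyaluronan. It was at 47.3 and 29.3 CPM in the libraries labelled Lbx1Δ/Δ and 62.8 and 57.0 CPM in WT, so the groups did not overlap, and library 2 labelled Lbx1Δ/Δ was the lowest. The means were 38.3 ± 12.7 CPM and 59.9 ± 4.05 CPM (SD, n = 2 each), with log2 differences of −0.41 within number 1 and −0.96 within number 2. The fitted value was −0.64, and −0.34 without library 2 labelled Lbx1Δ/Δ.

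Fmod encodes fibromodulin, a keratan sulfate proteoglycan that binds type I collagen and shapes its fibrils. It was at 102 and 88.5 CPM in the libraries labelled Lbx1Δ/Δ and 117 and 132 CPM in WT. The groups did not overlap, and the log2 differences were −0.20 within number 1 and −0.57 within number 2. Bgn, biglycan, which carries chondroitin or dermatan sulfate chains, was at 196 and 203 CPM against 254 and 215 CPM. Its groups did not overlap either, but within number 2 the library labelled Lbx1Δ/Δ still held 94.2% of the WT level, against 77.3% within number 1.

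Lum, lumican, a keratan sulfate proteoglycan best known from the cornea, was at 160 and 106 CPM in the libraries labelled Lbx1Δ/Δ and 240 and 129 CPM in WT. The groups overlapped, since library 1 labelled Lbx1Δ/Δ lay above WT library 2. Within numbers the library labelled Lbx1Δ/Δ was the lower, by log2 differences of −0.59 and −0.29. The fitted difference of −0.47 turned to 0.06 when WT library 1 was left out.

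Dcn, decorin, the closest relative of biglycan, had 28 and 49 counts in the libraries labelled Lbx1Δ/Δ and 27 and 29 counts in WT. It was the only tested member with a higher fitted value (log2 0.57), but the groups overlapped and the value was 0.10 without library 2 labelled Lbx1Δ/Δ. Its ratios were 1.24 within number 1 (95% counting interval 0.702 to 2.18) and 1.67 within number 2 (1.04 to 2.74). Nearly all of these counts, 130 of the total, were assigned to 1 of its 2 accessions, and the other had 3.

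Aspn (asporin, a relative of decorin) had 0 counts in every library. The bound of 0.147 to 0.177 CPM holds only for reads that were assigned to it. Acan had 0 and 0 counts in the libraries labelled Lbx1Δ/Δ and 1 and 1 in WT. Matn4, a widely expressed matrilin, had 1 and 3 counts, against 8 and 3 counts in WT, and the difference was not detectable at this depth. These 3 genes and Dcn are the members with 2 accessions each, and the 6 members with a single accession had 19 or more counts in every library. A sum below 10 counts over the 4 libraries was found for 61.3% of all genes with several accessions and 41.3% of those with a single accession. The low counts of these 4 genes are thus uncertain as measures of expression, because how reads shared by transcripts were counted is not given in the sources used here.

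Across the members, 7 of 10 passed the filter on low counts, and 6 of these 7 were lower in the library labelled Lbx1Δ/Δ within both numbers. Of all 10757 genes tested, 30.9% were lower within both. In 5 of the 7, Ogn, Bgn, Fmod, Matn1 and Hapln1, the groups did not overlap and the libraries labelled Lbx1Δ/Δ were lower, as in 10.0% of all genes tested. The contrast had been used to draw up the list, so nothing is read from these counts. The share of all genes called at an adjusted p below 0.05 by edgeR's quasi-likelihood test on genotype was 0.0%, with 55 genes at an unadjusted p below 0.05 and 0 called by DESeq2. With the replicate number as a block, 0.586% of all genes tested were called lower. That fit tests the difference by which Ogn and Matn1 were chosen, so calls of members in it are not given.

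**Figure D2:**
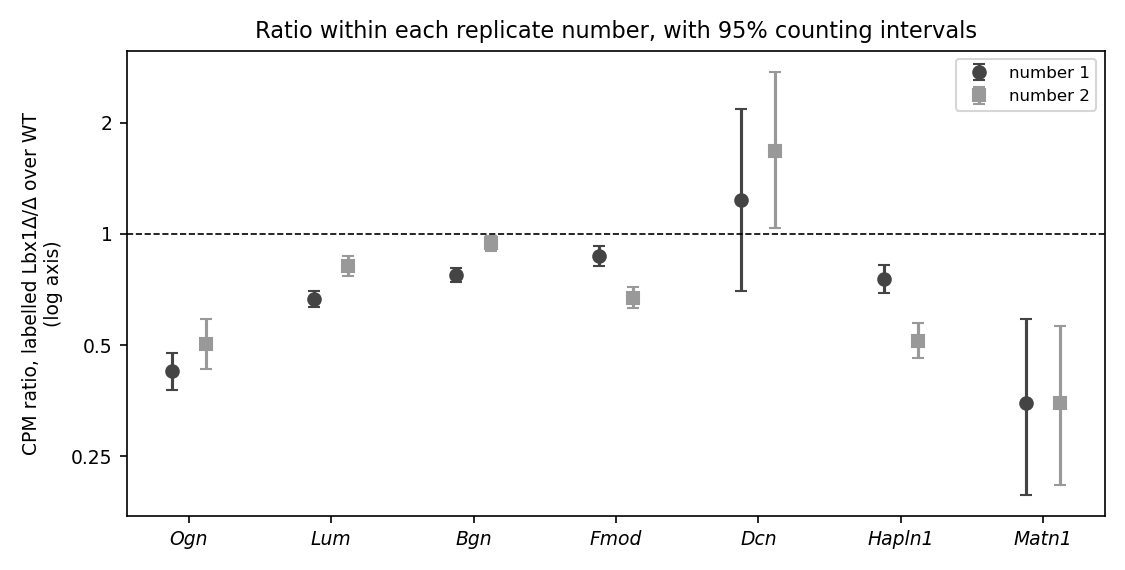
CPM ratio of the library labelled Lbx1Δ/Δ over WT for 7 genes within replicate number 1 (dark circles) and number 2 (grey squares), on a log axis, with 95% intervals that cover counting error only. The ratios are 0.425 and 0.504 for Ogn, 0.348 and 0.349 for Matn1, and 0.754 and 0.514 for Hapln1. Ogn and Matn1 were chosen by being lower within each number.

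Ratios between genes of the same library are given as a description only. Ogn counted against Lum in the same library gave ratios of 0.144 and 0.141 in the libraries labelled Lbx1Δ/Δ and 0.225 and 0.229 in WT. Each pair was closer together than the pairs of either gene's own level, and the groups did not overlap. Matn1 against Col11a1, a fibrillar collagen of cartilage, showed a log2 difference of −0.93 within number 1 and −1.15 within number 2. Such ratios do not show which of the pair differed, and Matn1 rests on 19 to 68 counts. Nothing is read from these ratios, since Ogn and Matn1 were chosen by their own differences between the labels.

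The collagens of connective tissue, to which several of these proteoglycans bind, gave a common scale. Division by their sum shifts all members of a library by the same factor, so it leaves the differences between members as they were. The 10 collagens listed were all tested, and none passed edgeR's test on genotype. All 10 were lower within both numbers, against 30.9% of all genes tested. The median log2 difference of the collagens was −0.34 (−0.0026 over all genes tested). Col1a1, Col1a2 and Col3a1, the main fibril-forming chains, had log2 differences of −0.34, −0.37 and −0.34. Without WT library 1, those of Col1a2 and Col3a1 were −0.12 and −0.05. Per 1000 CPM of these collagens, Ogn was at 4.26 and 2.84 in the libraries labelled Lbx1Δ/Δ and 7.07 and 4.93 in WT, log2 differences of −0.73 and −0.80 within the numbers. Matn1 was at 0.205 and 0.268 against 0.416 and 0.671. Neither overlapped on this scale, from which nothing is read, since both genes were chosen by this difference. Lum, at 29.6 and 20.2 against 31.4 and 21.6, overlapped and differed by −0.08 and −0.09 within the numbers. Bgn was slightly higher, at 36.3 and 38.6 against 33.2 and 35.9. Fmod and Hapln1 went opposite ways in the numbers, with log2 differences of 0.30 and −0.38 for Fmod and 0.10 and −0.77 for Hapln1.

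**Figure D3:**
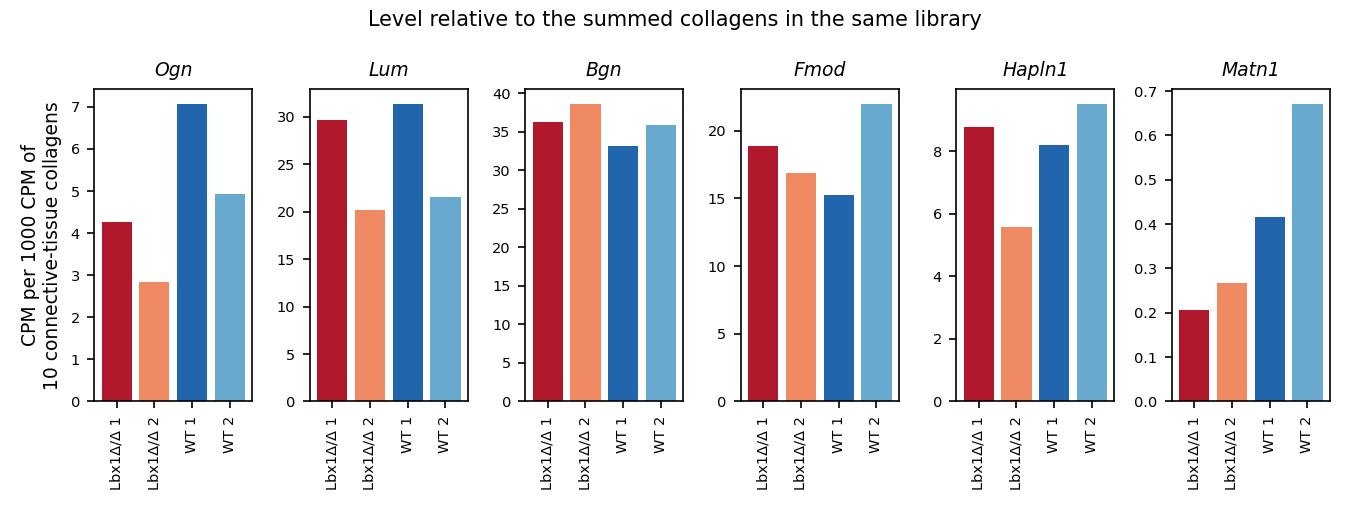
Level of 6 genes per 1000 CPM of 10 summed connective-tissue collagens in the same library, a bar per library from 0; red and orange bars are libraries labelled Lbx1Δ/Δ and blue bars are WT. Ogn is at 4.26 and 2.84 against 7.07 and 4.93 in WT, and Lum at 29.6 and 20.2 against 31.4 and 21.6 in WT. The common denominator shifts all genes of a library alike.

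Markers of tissues around the tube differed between the numbers by edgeR's test and gave no call between the labels in the fit on genotype alone. Lower in number 2 were 5 of 9 tested mesenchyme genes, 6 of 10 of muscle, 3 of 6 of surface ectoderm and 4 of 4 erythroid genes, against 12.2% of all genes tested. The mesenchyme list, whose sum rests mostly on the same 3 collagens, summed to 4536 and 4147 CPM in the libraries labelled Lbx1Δ/Δ. In WT it summed to 6393 and 4766 CPM. Of its 9 tested genes 8 were lower within both numbers, against 30.9% of all genes tested, a share that applies to each list below. Skeletal muscle markers summed to 790 and 137 CPM against 919 and 438 CPM, with 7 of 10 lower within both, and Tnnt1 at 0. Surface ectoderm markers summed to 117 and 59.9 CPM against 153 and 96.6 CPM, with 4 of 6 lower within both, and Trp63 at 0. Erythroid markers were at 5851 and 2522 CPM against 8193 and 2761 CPM, with 4 of 4 lower within both, and Hba-a1 and Alas2 at 0. In these 4 lists the library labelled Lbx1Δ/Δ was below the WT library of the same number, as Ogn and Matn1 were, but the sums for muscle, ectoderm and erythroid cells overlapped between the labels. The sums of the notochord, meninges and endothelium lists also lay below WT within both numbers, and those of neural progenitors and neurons above.

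Notochord markers summed to 68.0 and 43.0 CPM in the libraries labelled Lbx1Δ/Δ and 76.0 and 52.2 CPM in WT. Lower within both numbers were 3 of 5, against 30.9% of all genes tested. T (brachyury), a defining gene of the notochord, had 49 and 46 counts against 92 and 65 counts, lower within both numbers. It was the only tested gene of this list without overlap. Shh was at 33.3 and 31.2 CPM in the libraries labelled Lbx1Δ/Δ and 32.8 and 34.1 CPM in WT. Krt19 had 34 and 8 counts against 29 and 20 counts, higher within number 1 and lower within number 2. Noto, also of the notochord, and Cdx2 were at 0, and Krt8 and Krt18 are shared with the ectoderm list. The sum of the meninges list was nearly level, at 1220 and 1173 CPM against 1223 and 1191 CPM. Within both numbers 3 of 10 were lower, near the share of all genes tested. Between the numbers, edgeR's test called 4 of its 10 genes higher in number 2 and 3 lower, so the level sum hides opposite differences. Of all genes tested, 25.5% were called in either direction. The most abundant genes of the meninges list, Zic1, Crabp2 and Aldh1a2, are also expressed in neural tissue. Endothelial markers were at 415 and 438 CPM against 462 and 464 CPM, with 3 of 4 lower within both, and Pecam1, Tek, Emcn and Pdgfrb at 0. Neural progenitor genes were higher within both numbers in 5 of 7 cases, with Pax6 at 0, and neuron genes in 4 of 4, with Syt1 at 0. Of all 10757 genes tested, 3057 were higher within both. The genes at 0 in the neural and endothelial lists all have several accessions. None of the genes of these lists passed edgeR's test on genotype, and the part of these tissues in the differences of Ogn and Matn1 was not tested. Counted per 1000 CPM of the muscle markers, Ogn was lower within number 1, at 29.1 against 58.9 in WT, and higher within number 2, at 109 against 67.6 in WT. On the same scale Matn1 was at 1.40 and 10.2 in the libraries labelled Lbx1Δ/Δ and 3.47 and 9.19 in WT, so it too was higher within number 2. The muscle sum of library 2 labelled Lbx1Δ/Δ was 137 CPM. Per 1000 CPM of the ectoderm markers Matn1 was at 9.48 and 23.5 against 20.9 and 41.7, and the groups overlapped. Ogn on that scale was at 197 and 249 against 354 and 306, without overlap. Per meninges markers, log2 differences within numbers 1 and 2 were −1.23 and −0.97 for Ogn, and −1.52 and −1.50 for Matn1. Per endothelial markers they were −1.08 and −0.90, and −1.37 and −1.44. Per mesenchyme markers they were −0.74 and −0.79, and −1.03 and −1.32. From these ratios nothing is read.

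**Figure D4:**
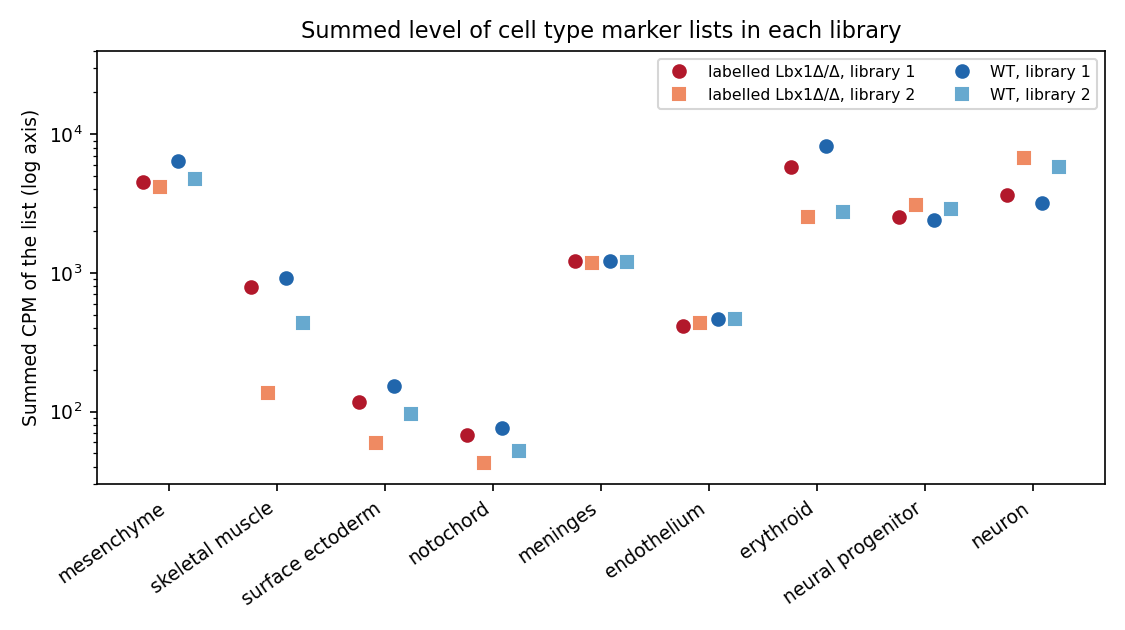
Summed CPM of 9 cell type marker lists in each library on a log axis; red and orange points are libraries labelled Lbx1Δ/Δ and blue points are WT, circles are number 1 and squares number 2. Muscle is lowest in library 2 labelled Lbx1Δ/Δ at 137 CPM. The meninges sum lies between 1173 and 1223 CPM, although genes of that list differ in opposite ways between the numbers.

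Differences between the replicate numbers were not the rule by which the members were listed, so they were tested. The members and all other lists were, however, chosen with earlier results of these data known. This limits every comparison of a list with the share of all genes tested. Libraries numbered 2 were set against those numbered 1, each number holding 1 library of each label, and 25.5% of all genes tested passed edgeR's test at an adjusted p of 0.05. Of the 7 tested members, 1 passed. Lum was at 106 and 129 CPM in number 2 and 160 and 240 CPM in number 1, means of 118 ± 16.4 and 199.9 ± 56.6 CPM (SD, n = 2 each). The groups did not overlap, and the log2 difference was −0.76 (SE 0.18, edgeR adjusted p = 0.0115). The call was lost without library 1 labelled Lbx1Δ/Δ (edgeR adjusted p = 0.0663) and without WT library 1 (edgeR adjusted p = 0.216), and the number of genes called then fell to 6 and 1. Ogn had a similar difference with a wider error, −0.80 (SE 0.38, edgeR adjusted p = 0.159), and its ranges in the numbers overlapped. Those of Bgn, Fmod, Hapln1, Matn1 and Dcn were −0.11, 0.01, −0.35, 0.32 and 0.63, with edgeR adjusted p-values between 0.301 and 0.975.

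Transcription factors of sclerotome and connective tissue act upstream of many of these matrix genes. In fits without a block they were called between the numbers and not between the labels, a contrast that was not itself tested. Of 14 tested, 11 were lower in number 2 by edgeR's test, against 12.2% of all genes tested, and none passed the test on genotype alone. With the replicate number as a block, 1 of them, Foxc1, was called lower in the libraries labelled Lbx1Δ/Δ. Sox9, the main factor of cartilage, had log2 differences of −0.54 between the numbers (edgeR adjusted p = 0.00524) and −0.11 between the labels. Which cells of the pooled tissue the Sox9 counts came from was not tested. Foxc1 and Twist1, factors of mesenchyme, differed by −0.91 and −1.42 between the numbers (edgeR adjusted p = 0.0102 and 0.00572) and by −0.50 and −0.43 between the labels. Single libraries decided the values between the labels. Foxc1 lay between −1.11 without library 1 labelled Lbx1Δ/Δ and −0.03 without WT library 1. Twist1 was −1.76 without library 1 labelled Lbx1Δ/Δ, 0.20 without WT library 1 and 0.25 without library 2 labelled Lbx1Δ/Δ. None of the 10 connective-tissue collagens was called between the numbers.

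Other members of the proteoglycan family were mostly sparse. Of 12 listed, 7 were tested, none passed on genotype, 6 had lower fitted values (50.5% of all genes tested did), and the median log2 difference was −0.27. Prelp, a proteoglycan of basement membranes and cartilage and the neighbour of Fmod on chromosome 1, was at 13.4 and 21.8 CPM in the libraries labelled Lbx1Δ/Δ and 18.1 and 24.3 CPM in WT, and the groups overlapped. On chromosome 10 the order is Dcn, Lum, Kera, Epyc. Kera, keratocan, had 46 and 2 counts against 74 and 8 counts, and Epyc, epiphycan, 87 and 37 against 96 and 44 counts. Both were lower in number 2 by edgeR's test (adjusted p = 0.00285 and 0.0363), as Lum was, and their levels overlapped between the labels. On chromosome 13 the order is Ecm2, Aspn, Omd, Ogn, and Aspn and Ogn lie within the span of Cenpp, a centromere gene. Ecm2 had 38 and 62 counts in the libraries labelled Lbx1Δ/Δ and 60 and 78 in WT, and Omd, osteomodulin, had 0 and 0 against 1 and 1. Cenpp, named because its span covers Ogn, had 392 and 168 counts against 522 and 254 counts. Its fitted log2 difference was −0.31, and 0.17 without library 2 labelled Lbx1Δ/Δ.

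Among 24 other genes of cartilage and hyaluronan matrix, 15 were tested, none passed on genotype, and within both numbers 8 were lower and 2 higher. The median of the log2 differences was −0.21. Of all 10757 genes tested, 3320 were lower and 3057 higher within both. Col11a1 was at 267 and 246 CPM in the libraries labelled Lbx1Δ/Δ and 402 and 319 CPM in WT, and did not overlap (log2 −0.49, SE 0.18). Hspg2, perlecan of basement membranes and cartilage, differed by 0.01. Ncan, the neural proteoglycan, was at 386.5 and 804.5 CPM against 343 and 656 CPM, and was higher in both libraries of number 2 (edgeR adjusted p = 0.000765). Hapln3, a link protein next to Acan on chromosome 7, had 62 and 35 counts against 43 and 19 counts, the opposite direction to Hapln1, with overlapping groups. Vcan, versican, next to Hapln1 on chromosome 13, has 5 accessions and had 30 and 24 counts against 35 and 41.

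Genes that build, cut or bind the proteoglycans gave no call between the labels in the fit on genotype alone. Of 22 tested genes of glycosaminoglycan synthesis, none passed on genotype, 14 had lower fitted values (50.5% of all genes tested), and the median log2 difference was −0.04. Fam20b, a kinase of the linkage region, was at 186.6 and 187.2 CPM in the libraries labelled Lbx1Δ/Δ and 192.2 and 189.5 CPM in WT. Chsy1, a chondroitin synthase, and Ugdh, which makes the sugar donor, had log2 differences of −0.23 and −0.25. All 12 tested proteinases and inhibitors had lower fitted values, against 50.5% of all genes tested, with a median of −0.25, and none passed on genotype, with −0.33 for Mmp2, −0.23 for Mmp14 and −0.21 for the inhibitor Timp3. Without WT library 1, these were 0.19, 0.14 and −0.01, and Ugdh and Tgfb3 were 0.04 and 0.23. Of 9 tested growth factors and receptors none passed, with a median of −0.18. Tgfb3, a ligand held by decorin and its relatives, had −0.18, and the receptors Itgb1 and Lrp1 −0.30 and 0.06.

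The genes with the profile nearest to Ogn were found by the greatest difference of centred log2 CPM over the 4 libraries, among 8767 genes with an average log2 CPM above 1. They were Pik3ap1, Osr2, Cfap126, Wnt10b and Fbln7, none more than 0.29 away from Ogn in any library. Osr2, a zinc-finger factor of limb and palate mesenchyme, had 47 and 22 counts in the libraries labelled Lbx1Δ/Δ and 113 and 57 in WT. Nearest to Matn1 were Slc15a2, Tnmd, Cox4i2, Mc4r and Susd5, within 0.46. Tnmd, tenomodulin of tendon, had 31 and 55 counts against 117 and 100 counts. Slc15a2, at most 0.13 away, has 2 accessions and is uncertain. With 4 libraries many profiles are alike, so these names describe likeness only.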

How the data were processed

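The authors deposited raw read counts per RefSeq accession for 4 libraries, whole numbers with no normalization; TopHat2 2.1.1, featureCounts and edgeR with build mm9 are named in the submitters' processing notes. Not given in the sources used here are the annotation, the strand setting and how reads shared by transcripts were treated, so reads of overlapping or antisense genes cannot be told apart. Per the labels' protocols, RNA from pooled tubes was made into libraries with an Illumina kit.

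Of 41411 accessions, 41213 were named from a RefSeq table (GRCm38.p6), 102 from GENCODE, and 96 kept their accession. Counts were summed per symbol. Genes were filtered with filterByExpr at its defaults (minimum count 10, minimum total 15). edgeR 4.0.16 in R 4.3.3 fitted genotype alone, and replicate number alone, with TMM, glmQLFit and glmQLFTest, two-sided, with Benjamini-Hochberg adjustment over 10757 genes. Each SE was taken as the log2 difference over the square root of its F statistic. Differences within a number used log2 CPM with 0.5 counts added. Tests were tried on simulated counts. The genes and lists were chosen with earlier results of these data known. Picked beside the 10 genes were Lbx1, the 3 highest tested genes of a list and any past the threshold on genotype. Neighbours in the lists and the 5 nearest profiles of Ogn and Matn1 were added. Not all of the picked genes are mentioned. Cenpp, T, Krt19, other genes given at 0, and the ratios between genes were chosen after the values were seen. Alternatives were RLE scaling, library totals, no filter, CPM over 1 in at least 2 libraries as the filter, DESeq2 1.42.0, genes with a single accession, a replicate block (for the numbers, genotype as a covariate) and leaving out each library.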

Additional observations from a re-analysis of the deposited data

How the results depend on the processing

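On genotype, 0 of 10757 genes passed with edgeR, also under RLE scaling, library totals, both other filters, DESeq2 and single-accession genes (26 to 101 genes at an unadjusted p below 0.05), and 0 to 0 when single libraries were left out. With the replicate block 92 genes were called, 29 higher and 63 lower, so statements that none passed on genotype hold for the fit without it. Among the lists other than the members, it called lower Col5a2, Col12a1, Col9a3, Col11a1, Foxc1, Dse, Adamts9, Tbx15, Myh3 and Krt5. It called Map2 higher, and all these names come from the calls. The labels do not pair the numbers; deviations of same-numbered libraries from their group means correlated at 0.62 across 10757 genes. Among the members, the log2 differences on genotype kept their direction under every alternative run, except Lum without WT library 1 (0.06). A further 51 genes were picked from the lists or as neighbours, with Lbx1 and Cenpp, and not all of them are mentioned above. Of these 51, 33 changed sign on genotype when some single library was left out. Between the numbers 2739 genes were called, and 1 to 3917 when single libraries were left out. There, Fmod (0.01) was −0.011 with genotype as a covariate. When single libraries were left out, the log2 differences lay between −0.31 and 0.27 for Fmod, −0.27 and 0.0796 for Bgn, −0.63 and 1.27 for Matn1, and −0.91 and 0.0556 for Hapln1, so the sign turned for each. Ogn passed with genotype as a covariate (edgeR adjusted p = 0.000928), without the filter (0.0394) and without WT library 2 (1.95e-05), and Hapln1 with the covariate (0.0404) and without WT library 2 (9.18e-05). Fits that leave a lone library in a group assume that it varies like the others. Counts of 19 to 68 limit Matn1 and Dcn, as their counting intervals show, and Aspn, Acan and Matn4 were too low to compare.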
